A study of Mus musculus with 2 samples.

Results

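The 8 genes described here, Meig1, Spag16, Spag17, Spef2, Hook1, Rimbp3, Cep131 and Lrguk, encode MEIG1, proteins tied to it, and proteins of the manchette and sperm tail. They were taken by name, and all 8 were found among the 43346 genes of the deposited tables. The tissue was testis of a single C57BL/6J male (an inbred strain) at 10 weeks of age, an adult, and its polyA mRNA was sequenced. There are 2 libraries, technical replicates 2 and 1 of biological replicate 1, and replicate 2 was made later. The expected counts (reads estimated for each gene) summed to 20675551 in replicate 2 and 31995377 in replicate 1. With 1 group and no other condition, the values show this animal and the spread between its 2 libraries, not between animals.

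After meiosis a round spermatid reshapes its nucleus and grows a tail. During that time a skirt of microtubules, the manchette, surrounds the nucleus, helps to shape the head and carries cargo towards the base of the growing tail. MEIG1 is a small protein that sits at the manchette, where it takes part in moving SPAG16 and other tail proteins. SPAG16, SPAG17 and SPEF2 belong to the central apparatus, the pair of microtubules and its projections in the core of the motile tail. HOOK1 is a microtubule linker whose loss in the azh mouse gives misshapen sperm heads, RIMBP3 is a manchette protein that binds HOOK1, CEP131 is a centriolar satellite protein that mouse sperm tails need, and LRGUK is needed for the manchette and the start of the tail.

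The sequences just upstream of the annotated starts are shown for the 4 genes whose windows held one of the searched motifs. For Meig1 all 3 starts are shown, because its estimated level was divided between them differently in the 2 libraries. Each line is the 250 bases before a RefSeq start on GRCm38.p6, read 5′ to 3′ on the strand of the gene. Of the 8 genes, 7 had an entry in the RefSeq promoter table, with 9 windows in all, and Rimbp3 had none. Capitals mark matches, on either strand, to TGACG (one arm of a cyclic AMP response element, CRE, the motif bound by CREM in spermatids), to TGACGTCA (the full CRE, which contains that arm on both strands) or to GTTGCC (one arm of an X-box, the motif bound by RFX factors, which act on many cilium genes). Over all 32851 windows of this length, TGACG was found in 17.8%, TGACGTCA in 1.55% and GTTGCC in 10.4%. Lrguk held the full CRE at 26 to 19 bases before its start and GTTGCC on the opposite strand at 10 to 5 bases. Spag16 held GTTGCC on the opposite strand at 111 to 106 bases before its start and on its own strand at 103 to 98 bases. Read 5′ to 3′, these 2 matches point away from each other.
Lrguk, chr6:34029198-34029447, plus strand: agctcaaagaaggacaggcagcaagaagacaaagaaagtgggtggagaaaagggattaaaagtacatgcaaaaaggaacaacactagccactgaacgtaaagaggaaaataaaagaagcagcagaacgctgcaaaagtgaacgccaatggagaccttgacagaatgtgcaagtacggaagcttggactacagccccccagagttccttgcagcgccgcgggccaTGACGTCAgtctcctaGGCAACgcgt
Spag16, chr1:69826720-69826969, plus strand: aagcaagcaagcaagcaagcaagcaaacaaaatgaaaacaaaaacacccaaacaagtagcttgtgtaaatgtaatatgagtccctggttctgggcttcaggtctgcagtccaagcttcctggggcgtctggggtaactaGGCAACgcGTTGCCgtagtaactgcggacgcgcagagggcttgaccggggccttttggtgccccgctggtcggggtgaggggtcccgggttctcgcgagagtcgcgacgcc
Cep131, chr11:120086828-120087077, minus strand: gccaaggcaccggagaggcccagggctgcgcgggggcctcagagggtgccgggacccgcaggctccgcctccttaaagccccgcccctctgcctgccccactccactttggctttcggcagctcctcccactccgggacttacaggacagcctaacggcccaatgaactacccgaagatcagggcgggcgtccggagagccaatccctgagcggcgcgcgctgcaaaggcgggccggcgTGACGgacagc
Meig1, outer start, chr2:3422649-3422898, minus strand: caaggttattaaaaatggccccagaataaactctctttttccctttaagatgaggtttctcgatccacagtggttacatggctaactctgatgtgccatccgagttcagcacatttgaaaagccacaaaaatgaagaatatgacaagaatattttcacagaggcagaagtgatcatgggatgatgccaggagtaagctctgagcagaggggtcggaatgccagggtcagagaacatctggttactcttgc
Meig1, middle start, chr2:3419130-3419379, minus strand: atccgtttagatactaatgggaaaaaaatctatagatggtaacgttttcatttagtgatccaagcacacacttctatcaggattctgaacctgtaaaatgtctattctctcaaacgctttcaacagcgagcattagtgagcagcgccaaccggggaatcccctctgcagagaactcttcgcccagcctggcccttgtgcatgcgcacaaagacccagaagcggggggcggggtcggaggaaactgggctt
Meig1, inner start, chr2:3418598-3418847, minus strand: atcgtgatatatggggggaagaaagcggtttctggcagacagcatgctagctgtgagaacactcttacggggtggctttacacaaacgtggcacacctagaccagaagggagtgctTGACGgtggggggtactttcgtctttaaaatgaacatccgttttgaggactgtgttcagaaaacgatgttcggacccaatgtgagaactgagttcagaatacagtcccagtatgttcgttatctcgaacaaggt
Cep131 held TGACG at 11 to 7 bases, and the inner Meig1 window held it at 134 to 130 bases before the start. The windows of Spag17, Spef2 and Hook1 and the 2 other windows of Meig1 held none of these letters. The windows also differed in base composition, from 43.6% GC at the outer start of Meig1 to 70.0% at Cep131 and 70.4% at Hook1, with a median of 52.4% over all windows. These matches describe letters in a window and are not a measure of binding.

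All 8 genes were detected, meaning 1 TPM or more in both libraries, as were 54.6% of the 21474 annotated protein-coding genes. TPM (a relative transcript level scaled for transcript length and depth) is used here to set genes beside each other within a library. As given below, the ratio between the libraries followed GC content. Comparisons between genes of unlike GC content carry that limit. Meig1 (ENSMUSG00000026650.11, chromosome 2, 3409043 to 3422648 on mm10, minus strand) stood far above the others, at 3429.8 TPM in replicate 2 and 5574 TPM in replicate 1. It ranked 10 among protein-coding genes in each library. Its TPM was 78.7% of the summed TPM of the 8 genes in replicate 2 and 77.2% in replicate 1. Per read its share was smaller, 31.7% of their expected counts in each library, as its leading transcript has 603 bases and the leading transcripts of the other 7 genes are longer.

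Hook1 (ENSMUSG00000028572.9, chromosome 4, 95967240 to 96025413, plus strand) was second in both libraries, at 398.7 TPM in replicate 2 and 1048 TPM in replicate 1. Of the central apparatus genes, Spag16 (ENSMUSG00000053153.10, chromosome 1, 69826970 to 70725132, plus strand) reached 151 TPM in replicate 2 and 236 TPM in replicate 1. Spag17 (ENSMUSG00000027867.10, chromosome 3, 99885406 to 100143322, plus strand) reached 116 TPM in replicate 2 and 213 TPM in replicate 1. Both thus lay below Hook1 and above Spef2 and Lrguk in each library. Spef2 (ENSMUSG00000072663.7, chromosome 15, 9578193 to 9748868, minus strand) stood at 25.1 TPM in replicate 2 and 63.1 TPM in replicate 1. Lrguk (ENSMUSG00000056215.8, chromosome 6, 34029448 to 34134034, plus strand) stood at 27.5 TPM in replicate 2 and 42.3 TPM in replicate 1.

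The remaining pair was higher in replicate 2. Rimbp3 (ENSMUSG00000071636.6, chromosome 16, 17208603 to 17213982, plus strand) had 178 TPM in replicate 2 and 45.3 TPM in replicate 1. Cep131 (ENSMUSG00000039781.10, chromosome 11, 120064430 to 120086827, minus strand) had 32.1 TPM in replicate 2 and 3.01 TPM in replicate 1. The Cep131 value rests on 1093 reads in replicate 2, or 52.9 CPM with a 95% interval of 49.8 to 56.1 (Clopper-Pearson, reads scaled to the library total), and on 38 reads in replicate 1, or 1.19 CPM (0.840 to 1.63).

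**Figure D1:**
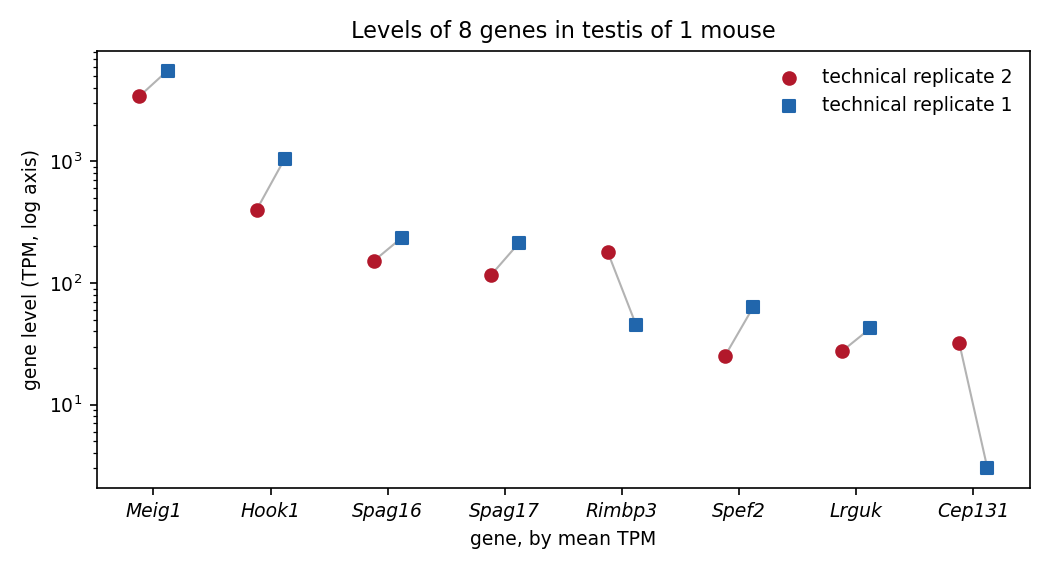
Level of each gene in TPM on a log axis, with 1 point per library (circles, technical replicate 2; squares, technical replicate 1) and a grey line joining the 2 libraries of a gene. Meig1 and Hook1 are the highest in both libraries; Rimbp3 and Cep131 are the genes whose replicate 2 point lies above the replicate 1 point.

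In replicate 2 the order by TPM was Meig1, Hook1, Rimbp3, Spag16, Spag17, Cep131, Lrguk and Spef2. In replicate 1 it was Meig1, Hook1, Spag16, Spag17, Spef2, Rimbp3, Lrguk and Cep131. Meig1, Hook1 and Lrguk held the same rank in both, and 5 genes changed rank. Within a library, every pair of neighbours differed beyond counting error, with each gene's effective length taken as fixed. Error in the transcript shares behind those lengths was left out. The closest neighbours were Lrguk over Spef2 in replicate 2, with a ratio of 1.10 (95% interval 1.01 to 1.19), and Rimbp3 over Lrguk in replicate 1, with a ratio of 1.07 (1.02 to 1.12). Between the libraries, however, Rimbp3 ranked 3 in replicate 2 and 6 in replicate 1, so the order below Hook1 is not fixed by these data beyond the spread of the libraries.

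Meig1 made up most of the group in TPM, and its transcripts were grouped by the nearest of 3 RefSeq starts. The annotated start of a transcript lay at most 110 bases from the RefSeq start of its group. The gene has 6 transcripts, of which all but Meig1-206 encode the same protein of 88 residues. Transcripts from the middle start held 3314 TPM in replicate 2 and 3281 TPM in replicate 1, so their level was nearly the same in the 2 libraries. That from the inner start, Meig1-202, held 3.98 TPM in replicate 2 and 1889 TPM in replicate 1. Transcripts from the outer start held 112 TPM in replicate 2 and 404 TPM in replicate 1. Transcripts grouped at the middle start thus held 96.6% of the Meig1 level in replicate 2 and 58.9% in replicate 1. The inner group held 0.116% in replicate 2 and 33.9% in replicate 1. Start sites were not measured. Of their exonic bases, 90.5% in Meig1-202, 81.8% in Meig1-203 and 87.1% in Meig1-204 lie within exons of Meig1-205. These shares thus depend on how reads that match several transcripts were divided. The windows of the 3 starts are printed above.

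Meig1-203, the leading transcript in both libraries, made up 81.3% of the gene's level in replicate 2 and 44.1% in replicate 1. Meig1-204, also from the middle start, made up 14.3% in replicate 2 and 13.0% in replicate 1. Most of the difference in Meig1 TPM between the libraries lay in Meig1-202, estimated at 13.2 reads (posterior SD 10.2) in replicate 2 and 9596 reads (posterior SD 225) in replicate 1. Meig1-202 is the shortest of these 3 transcripts, at 421 bases, and has 41.8% GC against 47.4% in Meig1-203. The labelled library size range is 350 to 450 bases, and the effective length used for its TPM was 243 bases in replicate 2 and 234 bases in replicate 1. The part of length and GC content in this difference was not tested.

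Of 44 transcripts of the 8 genes, 18 made up at least 10% of their gene's level in either library. Of these 18, 12 are annotated as protein-coding and 6 are not. Rimbp3 has 1 transcript, a single exon that encodes 1606 residues. Among the other 7 genes, Meig1, Spag17, Hook1 and Lrguk had the same leading transcript in both libraries, which is 4 of 7, against 66.2% of the 9123 detected genes with several transcripts. Spag16, Cep131 and Spef2 had different leading transcripts in the 2 libraries.

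Spag16 is known to make a long protein of the tail axoneme and a short protein, found also in germ cell nuclei, that holds the last part of the long one. The full-length transcript Spag16-201, which encodes 639 residues, made up 26.3% of the gene's level in replicate 2 (39.8 TPM) and 0.15% in replicate 1 (0.35 TPM). The estimate for Spag16-201 was 1061 reads (posterior SD 107) in replicate 2 and 14.8 reads (posterior SD 17.1) in replicate 1, so in replicate 1 it could not be told from 0. Most of the Spag16 level lay on 2 transcripts that the annotation calls processed transcripts, without a coding region.

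Spag16-204 begins 125 kb inside the gene, at an exon of its own, and then shares the downstream exons of Spag16-201. Its longest open reading frame, computed from the annotated sequence, is 310 residues long and is identical to residues 330 to 639 of the long protein. Spag16-204 held 77.4 TPM in replicate 2 and 59.0 TPM in replicate 1, or 51.1% of the gene's level in replicate 2 and 25.1% in replicate 1. It led in replicate 2, and its TPM was the steadiest of the 3 transcripts between the libraries.

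Spag16-206 begins at the first start, shares the exons that encode the first 413 residues of the long protein, and ends in an exon about 440 kb into the gene. Its longest open reading frame is 415 residues. Spag16-206 held 30.7 TPM in replicate 2 and 172 TPM in replicate 1, or 20.3% of the gene's level in replicate 2 and 72.8% in replicate 1. The 3 transcripts differ by less than 1 percentage point in GC content, at 45.8% for Spag16-201, 45.9% for Spag16-204 and 46.7% for Spag16-206. The short reading frame of Spag16-204 is a property of the annotated sequence, and these data hold no protein measurement.

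**Figure D2:**
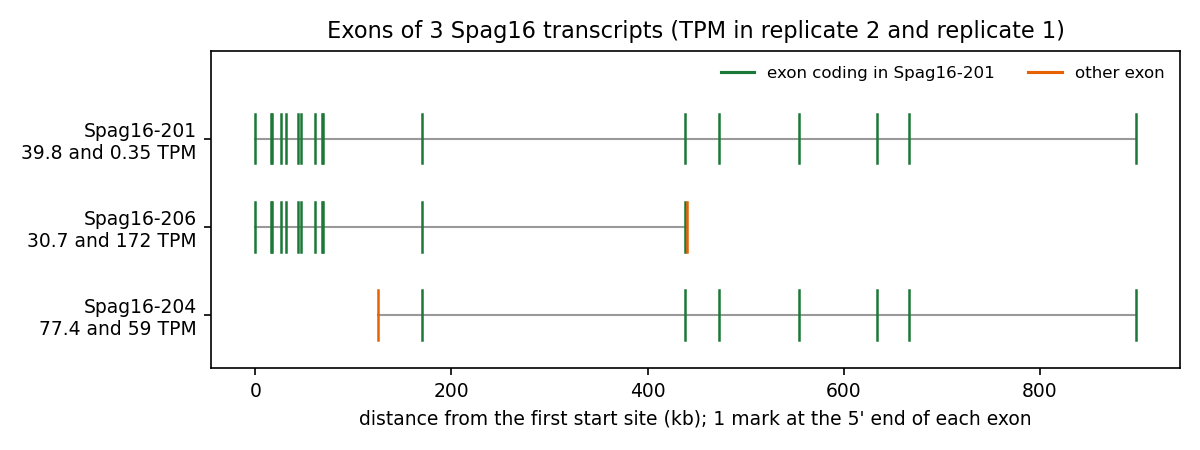
Exons of 3 Spag16 transcripts by distance from the first start of the gene in kb, with a mark at the 5′ end of each exon (green, exons coding in Spag16-201; orange, other exons) and the TPM in replicate 2 and replicate 1 beside each name. Spag16-204 lacks the upstream exons and Spag16-206 lacks the downstream ones.

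In TPM, the Hook1 level was also assigned largely to transcripts not annotated as coding. Hook1-207, a processed transcript of 2011 bases and 19 exons, made up 54.4% of the gene's level in replicate 2 and 48.2% in replicate 1. It covers 91.7% of the coding sequence of Hook1-201 but starts 7146 bases downstream of the first start. Its longest open reading frame of 517 residues shares 500 residues with HOOK1 from residue 43 on. Of its exonic bases, 100% lie within exons of Hook1-201, so its share depends on how reads that match both were divided. The coding transcript Hook1-201, with 5517 bases and a protein of 728 residues, made up 18.0% in replicate 2 (71.9 TPM) and 14.0% in replicate 1 (147 TPM). Per read its share was larger, 45.4% of the Hook1 reads in replicate 2 and 42.3% in replicate 1, because it is longer than Hook1-207. Hook1-208, with 428 bases, made up 20.7% in replicate 2 and 33.4% in replicate 1. Per read its share was far smaller, 2.44% of the Hook1 reads in replicate 2 and 4.57% in replicate 1. Of its exonic bases, 89.7% lie within exons of Hook1-201.

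Cep131 differed most in its transcripts. The coding transcript Cep131-201, which encodes 1059 residues, made up 69.8% of the level in replicate 2, with an estimated 1041 reads, and 1.32% in replicate 1, with an estimated 2.93 reads. Cep131-203, a processed transcript of 728 bases, was listed at 0 in replicate 2 and made up 94.3% in replicate 1, on an estimated 33.2 reads. Cep131-204, a processed transcript of 460 bases, made up 24.0% in replicate 2 and was listed at 0 in replicate 1. With 38 reads in replicate 1, the division of Cep131 between transcripts there rests on very few reads.

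In TPM, Spef2 was divided between 2 coding transcripts at close to even shares. Spef2-204, which encodes the full 1724 residues, made up 50.5% in replicate 2 and 41.9% in replicate 1. Spef2-205, which encodes 513 residues, made up 46.9% in replicate 2 and 46.3% in replicate 1. The change of leading transcript thus turned on a few percentage points of TPM. Per read Spef2-204 led in both libraries, with 76.6% of the Spef2 reads in replicate 2 and 70.4% in replicate 1, and Spef2-205 had 20.2% in replicate 2 and 22.1% in replicate 1. Spef2-202, also coding, was listed at 0 in replicate 2 and made up 10.8% in replicate 1, where its 256 estimated reads carried a posterior SD of 87.2.

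Spag17 and Lrguk each had 1 dominant coding transcript. Spag17-204, which encodes 2320 residues and is the longest of the 8 proteins, made up 93.7% in replicate 2 and 98.2% in replicate 1. Lrguk-201, which encodes 820 residues, made up 94.0% in replicate 2 and 92.0% in replicate 1. Both values were close in the 2 libraries.

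**Figure D3:**
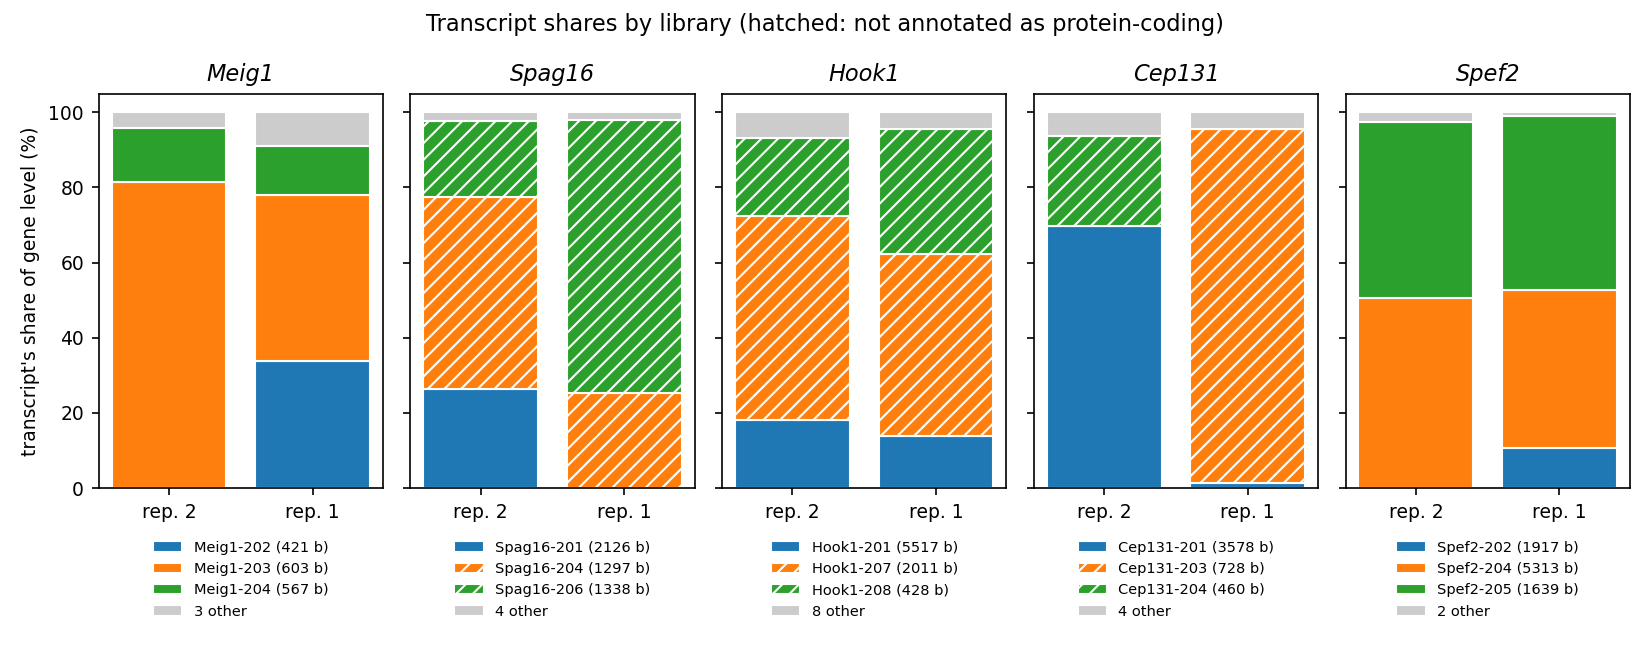
Share of each gene's level held by its transcripts, in percent, in technical replicate 2 (left bar) and technical replicate 1 (right bar); each colour is a transcript with at least 10% in either library, grey is the sum of the others, and hatching marks transcripts not annotated as protein-coding. Meig1-202, Spag16-206 and Cep131-203 have smaller shares in replicate 2 than in replicate 1.

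Counted over protein-coding transcripts alone, the level was 40.5 TPM in replicate 2 and 1.72 TPM in replicate 1 for Spag16. For Hook1 it was 72.0 TPM in replicate 2 and 147 TPM in replicate 1, and for Cep131 it was 22.4 TPM in replicate 2 and 0.04 TPM in replicate 1. Cep131 then fell below 1 TPM in replicate 1, so that 7 of the 8 genes counted as detected. The other 5 genes moved little, since at least 93.7% of their level in either library lay on coding transcripts. The coding levels of Spag16 and Hook1 rest on how reads shared between their transcripts were divided.

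The 2 libraries were then compared gene by gene on rounded counts scaled by TMM, using a conditional binomial test (exact, two-sided) with Benjamini-Hochberg adjustment over 18589 genes. Calls needed an adjusted p below 0.05 and a ratio of at least 2. What is compared are the reads of 2 libraries, not conditions or animals. Of the 8 genes, 2 were higher in replicate 2 (Rimbp3 and Cep131) and 3 were lower (Hook1, Spag17 and Spef2). Meig1, Spag16 and Lrguk were not called. Over all tested genes, 32.1% were called higher in replicate 2 and 23.7% lower, so calls of this kind were common. The median log2 ratio of replicate 2 over replicate 1 was -0.85 over the 8 genes and -0.003 over all tested genes.

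Cep131 had 1093 reads in replicate 2 and 38 in replicate 1, a log2 ratio of 5.17 (95% interval 4.72 to 5.69, counting error only, as for the intervals that follow). Rimbp3 had 13685 reads in replicate 2 and 5506 in replicate 1, a log2 ratio of 1.65 (1.61 to 1.70). Both were higher in replicate 2, by a factor of 35.9 for Cep131 on scaled counts and of 10.7 in TPM. Hook1 had 11592 reads in replicate 2 and 40070 in replicate 1, a log2 ratio of -1.45 (-1.48 to -1.42). Spag17 had 11439 reads in replicate 2 and 34818 in replicate 1, a log2 ratio of -1.27 (-1.30 to -1.24). Spef2, with 1164 reads in replicate 2 and 4167 in replicate 1, had a log2 ratio of -1.50 (-1.60 to -1.41) and an adjusted p of 4.68e-254 by the binomial test. These 3 genes were lower in replicate 2 by more than 2 times, although Spag17 lost its call under another scaling, with a log2 ratio of -0.98 on plain totals.

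Among the genes not called, Meig1 had 19830 reads in replicate 2 and 43227 in replicate 1, a log2 ratio of -0.79 (-0.81 to -0.76). Lrguk had 1028 reads in replicate 2 and 2450 in replicate 1, a log2 ratio of -0.91 (-1.02 to -0.81) and an adjusted p of 2.04e-69 by the binomial test. Spag16 had 2816 reads in replicate 2 and 5920 in replicate 1, a log2 ratio of -0.73 (-0.80 to -0.67) and an adjusted p of 2.67e-114 by the same test. All 3 differed beyond counting error and missed the ratio limit. In the deposited estimates the posterior SD of the gene count was 0 for all 8 genes in both libraries, so no read of theirs was divided with another gene. For Spag16 the ratio turned round when coding transcripts alone were counted, to a log2 ratio of 3.58.

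The ratio between libraries followed the GC content of the transcript, taken from the transcript of highest mean TPM over both libraries. Spef2, Hook1 and Spag17, the called lower genes, had leading transcripts of 41.9%, 43.6% and 44.4% GC. Lrguk, Spag16 and Meig1 lay between, at 45.4%, 46.7% and 47.4%. Rimbp3 and Cep131, the called higher genes, had 55.8% and 61.4%. Spearman's rho of GC content and log2 ratio was 0.98 over these 8 genes and 0.89 over 18404 tested genes, given as a description over genes that share the same 2 libraries. In the fifth of tested genes with the lowest GC content the median log2 ratio was -1.43, and in the fifth with the highest it was 3.22.

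Set against the median ratio of genes with GC content near their own, none of the 8 genes was called in either direction with these transcripts, where 10.9% of all genes were past a ratio of 2 above that median and 8.70% below it. The log2 ratio that was left was 0.16 for Cep131, -0.18 for Spef2, -0.32 for Spag17 and -0.35 for Hook1. For the genes not called before, it was -0.12 for Lrguk, -0.17 for Spag16 and -0.27 for Meig1. The Cep131 value depends on the transcript used: it is Cep131-201, which led in replicate 2, and with Cep131-203 (57.1% GC), which led in replicate 1, the log2 ratio left was 2.00 and Cep131 was called higher. Rimbp3, which has 1 transcript, lay on the other side of 0, at -0.91. Thus the Rimbp3 count was higher in replicate 2 than in replicate 1 by less than was usual for its base composition.

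**Figure D4:**
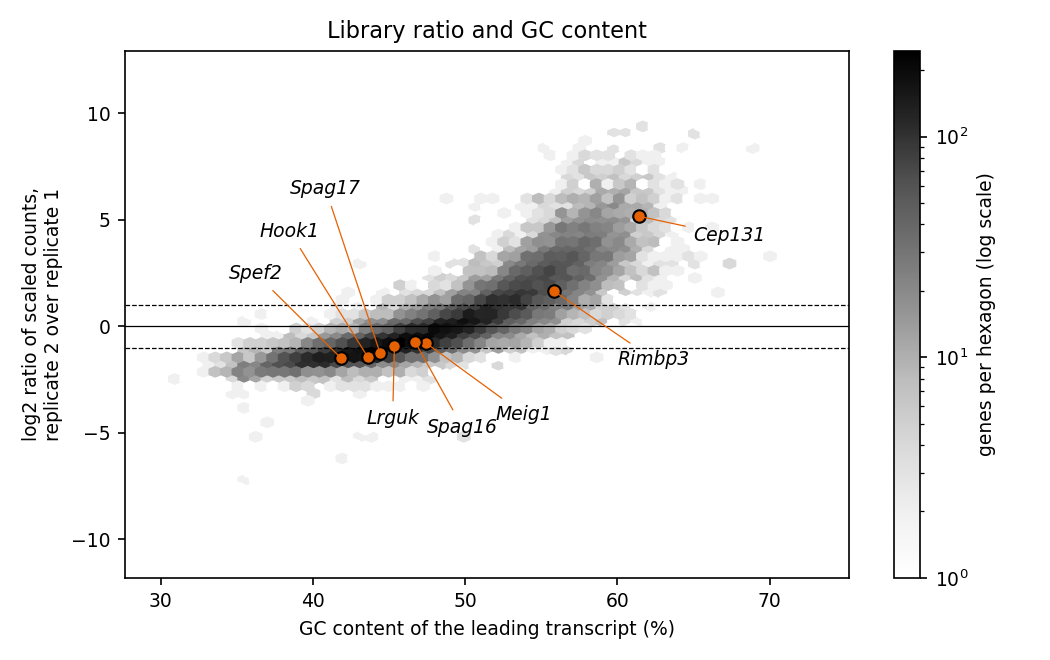
Log2 ratio of scaled counts, replicate 2 over replicate 1, against the GC content in percent of each gene's leading transcript, with the number of tested genes per hexagon in grey (log scale) and the 8 genes in orange. Solid and dashed lines mark equal counts and a ratio of 2. The 8 genes run along the cloud of all genes, from Spef2 at 41.9% GC to Cep131 at 61.4%.

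Other genes of the same structures were read from lists. The list of central apparatus genes had 13 genes, all of them detected. Of these, 4 were called higher in replicate 2, 3 lower and 6 neither, with a median log2 ratio of -0.03. Cfap69 had 289 TPM in replicate 2 and 498 TPM in replicate 1, Spag6l, whose protein binds SPAG16, had 246 TPM in replicate 2 and 273 TPM in replicate 1, and Cfap70 had 137 TPM in replicate 2 and 264 TPM in replicate 1. These 3 genes lay in the range of Spag16 and Spag17 or above it. Cfap20, next by mean TPM, lay below both, at 96.7 TPM in replicate 2 and 81.3 TPM in replicate 1.

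The list of manchette genes and its transport had 34 genes, of which 32 were detected and 33 tested. Of these, 12 were called higher in replicate 2, 7 lower and 14 neither, with a median log2 ratio of 0.14. Over all tested genes 32.1% were called higher and 23.7% lower, shares near those of both lists. By mean TPM the highest were Spem1, needed for shedding of the spermatid cytoplasm, at 676 TPM in replicate 2 and 112 TPM in replicate 1, and Ift74, an intraflagellar transport subunit, at 187 TPM in replicate 2 and 500.1 TPM in replicate 1. Ube2b, a ubiquitin-conjugating enzyme, followed at 207 TPM in replicate 2 and 375 TPM in replicate 1, and Cfap43 at 200 TPM in replicate 2 and 301 TPM in replicate 1. All of these lay below Meig1 and, with 1 exception, below Hook1 in both libraries. The exception was Spem1 in replicate 2.

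Paralogs of 2 of the genes were lower than the genes themselves. Hook2, whose protein binds LRGUK, had 56.8 TPM in replicate 2 and 9.05 TPM in replicate 1, and Hook3 had 4.08 TPM in replicate 2 and 9.51 TPM in replicate 1, both named after their values were seen. Hook1 was thus the highest of the 3 Hook genes in both libraries. Their leading transcripts differed in GC content, at 43.6% for Hook1, 56.7% for Hook2 and 38.9% for Hook3. Of the paralogs of Rimbp3, Tspoap1 had 6.91 TPM in replicate 2 and 1.30 TPM in replicate 1, and Rimbp2 had 0.64 TPM in replicate 2 and 0.16 TPM in replicate 1. Rimbp3 was above both in each library.

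**Figure D5:**
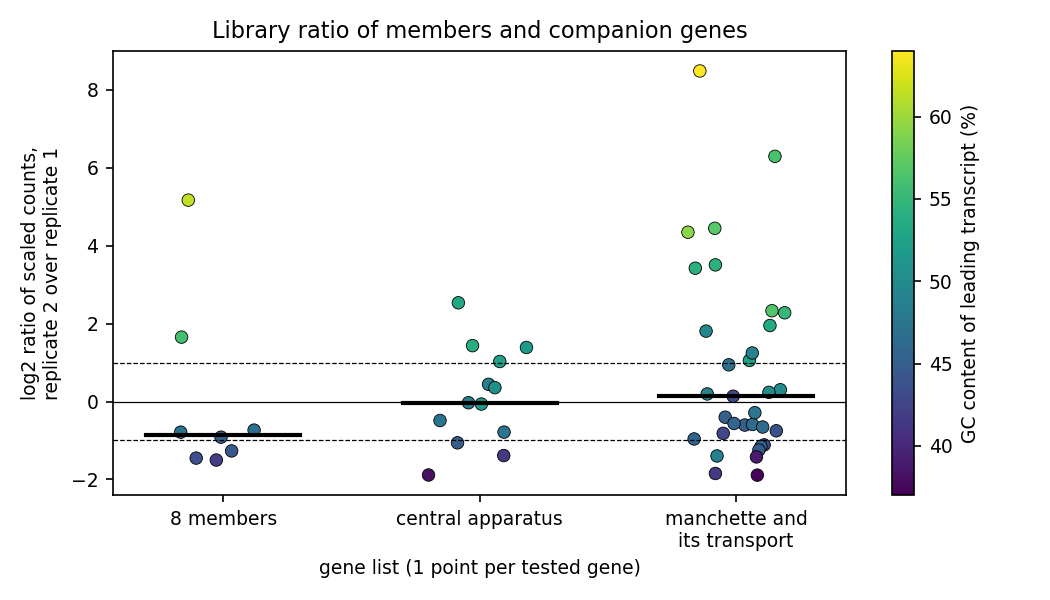
Log2 ratio of scaled counts, replicate 2 over replicate 1, of each tested gene among the 8 genes, the central apparatus list and the manchette list; colour gives the GC content of the leading transcript in percent, bars are medians, and dashed lines mark a ratio of 2. In all 3 groups the points of high GC content lie at the top; the medians are -0.85, -0.03 and 0.14.

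The protein-coding genes nearest to Meig1 in level, by distance on log2(TPM + 1) over the 2 libraries, were Crisp2, Fabp9, Gm3448, Smcp and mt-Cytb. Crisp2, a sperm acrosome and tail protein, was the nearest at a distance of 0.40, with 2887 TPM in replicate 2 and 6903 TPM in replicate 1. A likeness over 2 libraries of 1 animal says only that the levels were near each other.

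Markers of the cells a testis sample can hold were checked beside these levels. The 6 germ cell markers were all detected and summed to 24182 TPM in replicate 2 and 8218 TPM in replicate 1. Of these, Prm1 and Tnp2 were called higher in replicate 2, Sycp3 and Ddx4 lower and 2 neither, with a median log2 ratio of -0.06. Most of the gap between the germ cell sums lay in Prm1 and Tnp2. The 4 Leydig cell markers summed to 2022 TPM in replicate 2 and 434 TPM in replicate 1, and the 4 Sertoli cell markers to 1088 TPM in replicate 2 and 886 TPM in replicate 1. Of 7 genes of multiciliated cells, such as those that line the efferent ducts and share tail genes with sperm, 1 was detected in both libraries, Deup1, at 217 TPM in replicate 2 and 330 TPM in replicate 1. The other 6 stood at 3.51 TPM or less, and Mcidas, which sets off the program of those cells, had 0 reads in replicate 2, which allows up to 0.145 CPM, and 4 reads in replicate 1. Of 6 epididymis markers, 1 was detected in both, Crisp1 at 19.3 TPM in replicate 2 and 53.8 TPM in replicate 1, and Lcn5 and Lcn8 had 0 reads in both. The 4 blood and immune markers summed to 134 TPM in replicate 2 and 17.2 TPM in replicate 1. In the Leydig list, Insl3 was called higher in replicate 2 and 3 markers were not called. Most of the gap between the Leydig sums lay in Insl3, at 1630 TPM in replicate 2 and 83.2 TPM in replicate 1. In the blood and immune list 3 were called higher and Ptprc lower. In the Sertoli list, Clu and Gata1 were called higher, with log2 ratios of 1.51 and 1.83. Wt1 and Sox9 were not called, at -0.57 and -0.53. The 2 tested epididymis markers, Crisp1 and Rnase9, were called lower. Of 4 tested genes of multiciliated cells, 2 were called higher, 1 lower and 1 neither. Over these marker lists, leading transcripts of the genes called higher had 51.3% (Hbb-bs) to 63.6% (Insl3) GC. Those of the genes called lower had 36.7% (Crisp1) to 43.1% (Rnase9). The tested markers not called lay between, from 45.6% (Acrv1) to 49.8% (Hsd3b6). The part of GC content in the marker differences was not tested. The part of these cell types in the library differences of the 8 genes was not tested. In bulk tissue, fewer cells of a type and less RNA per cell cannot be told apart.

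Of 12 annotated genes that overlap one of the 8, Wdr3, on the strand opposite Spag17, and 9530080O11Rik, on the strand opposite Hook1, had reads. The others were listed at 0, and 4 of them are small RNA genes, which polyA libraries of this size range are not made to capture. Wdr3 had 10.1 TPM in replicate 2 and 8.79 TPM in replicate 1, and 9530080O11Rik had 15.9 TPM in replicate 2 and 12.1 TPM in replicate 1. Both were far below Spag17 and Hook1 in each library.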

How the data were processed

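Testis polyA mRNA was measured in 2 technical replicate libraries of 1 mouse, with 20675551 expected counts in replicate 2 and 31995377 in replicate 1. Per the deposited notes, reads were quantified on mm10 with annotation M4; aligner and quantifier are not given in sources used here. Deposited by the authors were expected counts, TPM, FPKM, each transcript's share of its gene as a percent, and posterior means and SDs used here as scores, for genes and transcripts.

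Names, transcript sequences and GC content came from GENCODE M21 (same assembly), which matched 42462 of 43346 genes by identifier; 1 of the 44 transcripts, Rimbp3-201, had another length there. Counts were rounded, scaled by TMM in edgeR 4.0.16 (factors 1.11 in replicate 2 and 0.904 in replicate 1), filtered at a mean of 10, and compared by an exact conditional binomial test. Log2 ratios have 0.5 added to each count. Intervals and the limit for a count of 0 (3 counts) hold counting error alone, since reads without molecular identifiers may repeat a molecule. GC content was handled by the median ratio in 100 bins of equal gene number. Open reading frames were found with Biopython 1.88. Alternatives covered scaling (DESeq2 1.42.0 among them), filters, units, pseudocounts, each library alone and coding transcripts only. Genes named beside the 8 are the 4 highest of each list by mean TPM, their paralogs, and the 5 nearest to Meig1. The central apparatus list of 13 genes is without 1 gene that is not reported here. Transcripts were named at 10% or more of their gene in either library. The members and lists were chosen with earlier results of these data known. Replicates are technical, so p-values measure only the reads of these libraries.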

Additional observations from a re-analysis of the deposited data

How the results depend on the processing

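The counts of called genes depended on the ratio limit and on GC content. With a ratio of 1.5 or more, 6 of the 8 genes were lower in replicate 2 in place of 3, as were 33.7% of all tested genes in place of 23.7%. Against genes of similar GC content, 0 were higher in place of 2 and 0 were lower in place of 3, and Rimbp3 reversed to a log2 ratio of -0.91. With the GC content of the transcript that led in replicate 2 or in replicate 1, chosen after seeing the data, 0 were higher by the replicate 2 transcript and 1, Cep131, by the replicate 1 transcript, and 0 were lower by either. Rimbp3 was then at -0.54 and -0.70, and Spag16 at 0.0031, close to 0, and -0.24. Counting coding transcripts only, an alternative chosen after seeing the data, reversed Spag16, to a log2 ratio of 3.58 on counts and 3.93 on TPM. Spag17 fell short of a ratio of 2 on plain totals (-0.98) and on TPM with a pseudocount of 1 (-0.88). Plain totals moved the median log2 ratio of all tested genes to 0.29 and gave 6720 genes higher and 2845 lower, against 5960 higher and 4408 lower with TMM. The share of Meig1 in the summed TPM of the 8 genes, 77.9% as the mean of both libraries, was 31.7% on expected counts and 89.7% on coding transcripts. Leaving out a library gave 77.2% to 78.7% for that share and 8 to 8 genes detected. The test between libraries cannot be run with a library left out. An edgeR exact test with an assumed coefficient of variation of 0.1 called 2 genes higher and 3 lower. No paired analysis was possible because there is 1 group. Counting precision is lowest for Cep131, which had 38 reads in replicate 1 although that library is the deeper one.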
